A study of Mus musculus with 6 samples.

Results

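The genes described here are 34 mouse genes of mitosis and the spindle checkpoint, picked by name. They comprise the kinases, cyclins and phosphatases that drive cells into mitosis, the checkpoint proteins that watch the kinetochores, centromere and kinetochore proteins, spindle motors, cytokinesis proteins and 2 markers of proliferating chromosomes. Of the 34 genes, 33 had a probe set of their own on the array, out of 19946 genes with one. Cyclin B1 (Ccnb1) had none and has no value here. Probe sets are called rows, and a gene with several rows was read from the row with the highest mean over all arrays. Top2a was the case with a second row of its own, which was dim at 4.3 to 4.6 on the log2 scale and showed fold changes of 0.10, -0.10 and 0.00 on that scale.

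Messenger RNA was measured on 6 Affymetrix arrays of A3-1, a mouse embryonic stem (ES) cell line grown with fetal bovine serum and LIF, the cytokine that keeps such cells undifferentiated. The 3 groups had 2 arrays each. Untreated cells received no small interfering RNA (siRNA), the siGFP cells an siRNA against green fluorescent protein, which serves as the control siRNA, and the siLin28a cells an siRNA against Lin28a, an RNA-binding protein of ES cells. Both siRNA groups were kept for 48 h with their siRNA, and each group used 1 siRNA sequence, so effects of the sequence and of its target cannot be told apart. All 3 groups share the cell line and medium. Nothing in the labels tells if the arrays in a group stem from different cultures, so a p-value here covers the spread among arrays alone, and that spread may be technical.

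In mitosis, Cdk1 bound to cyclin A or B switches on the proteins that condense chromosomes and build the spindle. Kinetochores join chromosomes to spindle microtubules, and the checkpoint proteins at unattached kinetochores hold back Cdc20, the activator of the anaphase-promoting complex, until every chromosome is attached. Anaphase-promoting complex activity then frees the protease separase, which opens cohesin rings, and cytokinesis proteins divide the cell. Most of these genes are transcribed in late S phase, G2 and mitosis, and mouse ES cells divide fast with a short G1 phase. In bulk RNA, fewer cells in G2 and mitosis and less RNA per cell cannot be told apart.

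Promoter sequence is shown first because transcription of many mitosis genes is known to be timed by 2 short promoter elements. One is the cell cycle genes homology region (CHR), bound by MuvB complexes, and the other is the CCAAT box, bound by the factor NF-Y. Windows from 250 bases before to 50 bases from the annotated start of transcription were read from a table of RefSeq promoters on the mouse build GRCm38.p6, which held 28 of the 34 genes. Ccna2, Cdc25c, Aurkb, Incenp, Kif20a and Tpx2 were not matched. Below are 180 bases (150 before to 30 from the start), read 5′ to 3′ on the gene's strand, for 6 genes chosen after their values were seen: the 3 genes with the highest fold changes against untreated cells (Mki67, Cenpe and Cenpf), 2 that were among the lowest in siLin28a cells (Birc5 and Bub1), and Cdk1. Capitals mark the letters of a CHR, which are TTTGAA or TTCGAA on either strand, and the letters of a CCAAT box on either strand. The stretches are chr7:135716350-135716529 on the minus strand for Mki67, chr3:135212413-135212592 on the plus strand for Cenpe, chr1:189688057-189688236 on the minus strand for Cenpf, chr11:117849087-117849266 on the plus strand for Birc5, chr2:127831830-127832009 on the minus strand for Bub1 and chr10:69352883-69353062 on the minus strand for Cdk1.
Mki67: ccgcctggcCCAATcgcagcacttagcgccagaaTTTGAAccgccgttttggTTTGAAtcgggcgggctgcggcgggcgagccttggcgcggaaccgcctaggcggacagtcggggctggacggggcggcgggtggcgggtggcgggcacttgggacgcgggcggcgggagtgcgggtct
Cenpe: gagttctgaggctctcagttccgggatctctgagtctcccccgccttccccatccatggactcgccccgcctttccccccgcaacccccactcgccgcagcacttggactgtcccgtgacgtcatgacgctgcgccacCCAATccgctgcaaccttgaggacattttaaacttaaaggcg
Cenpf: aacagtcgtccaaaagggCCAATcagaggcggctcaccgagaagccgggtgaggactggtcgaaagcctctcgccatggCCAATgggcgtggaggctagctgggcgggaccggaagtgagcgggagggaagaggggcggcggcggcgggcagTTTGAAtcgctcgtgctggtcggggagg
Birc5: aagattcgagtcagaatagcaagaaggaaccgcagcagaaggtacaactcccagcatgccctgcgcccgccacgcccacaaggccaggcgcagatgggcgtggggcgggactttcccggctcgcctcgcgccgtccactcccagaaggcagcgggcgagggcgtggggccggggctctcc
Bub1: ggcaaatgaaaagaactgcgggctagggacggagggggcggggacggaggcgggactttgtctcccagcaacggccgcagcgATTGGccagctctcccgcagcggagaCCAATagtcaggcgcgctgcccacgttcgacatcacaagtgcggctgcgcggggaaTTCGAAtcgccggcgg
Cdk1: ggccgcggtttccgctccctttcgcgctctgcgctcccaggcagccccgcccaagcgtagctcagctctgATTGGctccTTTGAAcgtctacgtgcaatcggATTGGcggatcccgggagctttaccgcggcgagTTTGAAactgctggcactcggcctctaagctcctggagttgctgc

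In these stretches Cdk1 carried 2 CHR words and 2 CCAAT words, Mki67 carried 2 and 1, and Cenpf and Bub1 carried 1 and 2 each. Cenpe had 1 CCAAT word and no CHR word, and Birc5 had neither. Over the full windows, searched on both strands, a CHR word was found in 22 of the 28 genes (78.6%), against 21.7% of the 27025 genes in the table. A CCAAT word was found in 21 of the 28 (75%), against 41.1% of all genes. Both words were found in 19 of the 28 (67.9%), against 9.65% of all genes and 29.8% of 121 other mitosis genes with a window. A match describes the letters only. Of the 43 CCAAT words, 36 lay in the 150 bases before the start, and of the 31 CHR words, 21 lay within 50 bases of it. The start here is that of the promoter table. Of its 30 entries for these genes, 14 started at the RefSeq start of the gene. Plk4, Mad2l1, Nuf2 and Birc5 held neither word in the window, Ccnb1 and Cenpe held only CCAAT, and Ndc80, Kif2c and Anln held only a CHR word.

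**Figure D1:**
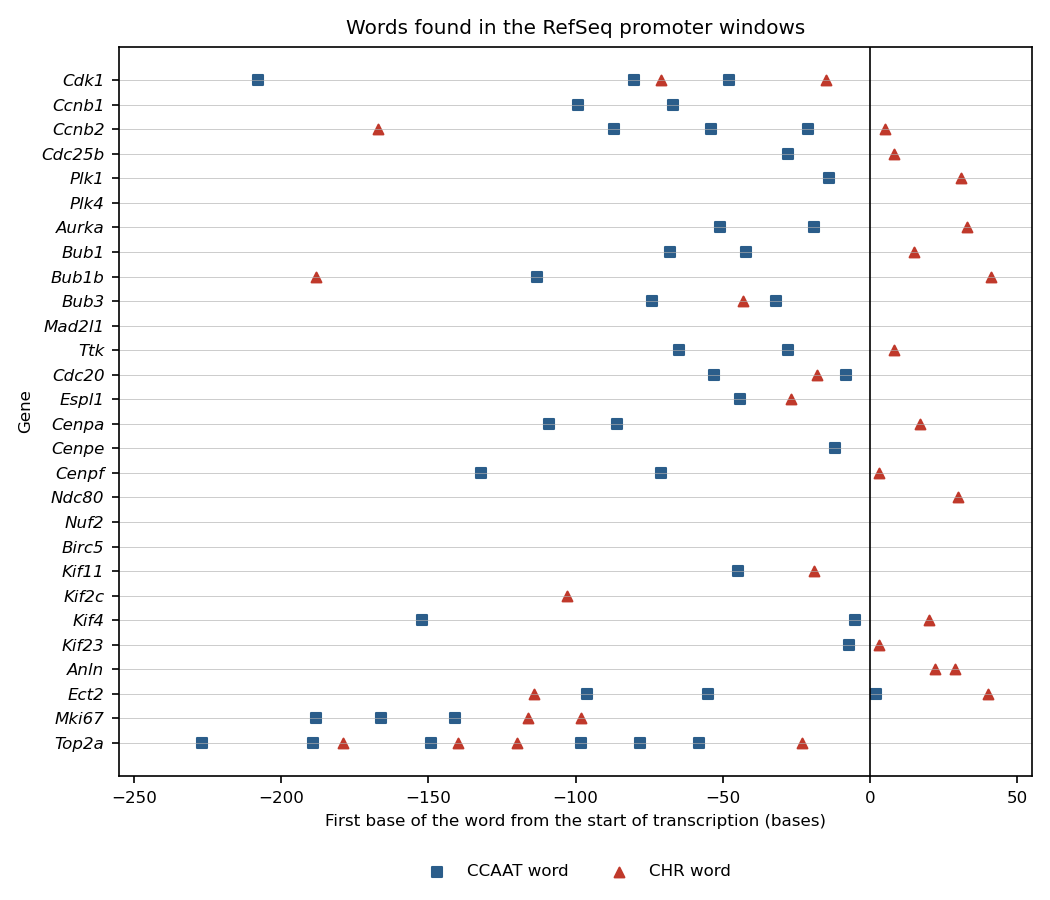
Position of each word in the promoter windows of the 28 matched genes, 1 line per gene, with the horizontal axis in bases from the annotated start of transcription. Squares are CCAAT words and triangles CHR words; the CCAAT words sit mostly upstream and 21 of the 31 CHR words lie within 50 bases of the start.

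The arrays had alike distributions, with medians of 5.2 to 5.3 and upper quartiles of 7.0 to 7.2 on the log2 scale, and all pairs of arrays correlated at r of 0.991 to 0.995 across rows. Lin28a read 9.1 and 9.4 in untreated cells, 9.1 and 9.4 in siGFP cells, and 7.4 and 7.4 in siLin28a cells, so both siLin28a arrays were below all others. All 10 ES cell markers had a row and read 7.8 to 12.7, Pou5f1 and Nanog among them, with mean marker levels of 10.66 and 10.72 in untreated, 10.60 and 10.81 in siGFP and 10.29 and 10.38 in siLin28a cells. The 9 feeder fibroblast markers read 2.1 to 7.1, with means of 4.77 to 4.91 per array. The 7 markers of differentiated derivatives with a row read 4.1 to 7.3, with means of 5.09 to 5.21. The part of the lower ES marker mean of siLin28a cells in the values below was not tested.

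The untreated arrays differed from each other over many mitosis genes. Untreated replicate 2 read lower than untreated replicate 1 by at least 0.5 on the log2 scale for 10 of the 33 genes (30.3%), against 6.05% of the 23410 rows tested. No gene of the set was lower by as much in replicate 1, against 5.74% of rows. The largest gap was 1.6 for Kif4, a chromosome-bound motor, and the next was 1.3 for Kif11, the motor that pushes spindle poles apart. Kif23 (1.1), Top2a (1.0), Bub1 (0.9), Ttk (0.9), Nuf2 (0.9), Plk4 (0.8), Anln (0.8) and Cenpe (0.6) made up the rest. By role, these were 3 of 6 spindle genes, 2 of 7 checkpoint genes, 2 of 7 centromere and kinetochore genes, 1 of 9 kinases, cyclins and phosphatases, 1 of 2 cytokinesis genes and 1 of 2 chromosome genes. Among 137 other mitosis genes, 39 (28.5%) were lower in untreated replicate 2 by at least 0.5 and 2 (1.46%) were higher. The largest of these gaps were 1.8 for Spdl1, a kinetochore adaptor of dynein, 1.4 for the cohesin subunit Smc1a and 1.4 for Ckap2.

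For 7 of the 10 genes (Ttk, Nuf2, Kif11, Kif4, Kif23, Anln and Top2a), all 4 siRNA arrays lay between or at the untreated values, so comparisons with untreated cells rest on which untreated array is used. In the other groups such gaps were fewer. Between the siGFP arrays, 3 genes were higher in replicate 1 by at least 0.5 (Cenpe by 1.6, Cenpf by 1.3 and Mki67 by 0.6; 9.09%, against 4.19% of rows), and none was higher by as much in replicate 2 (5.69% of rows). Between the siLin28a arrays, 2 genes (6.06%) were higher by as much in replicate 1, against 2.84% of rows, and 2 in replicate 2, against 5.16%. By any amount, 22 of the 33 were higher in siLin28a replicate 2, as were 11579 of the 23410 rows. The gap between untreated arrays also stood under other scalings, an alternative chosen after seeing the data. Quantile normalizing the values again gave 10 genes (30.3%, against 6.13% of rows). Aligning the array medians gave 11 (33.3%, against 8.79%), and cyclic loess gave 10 (30.3%, against 6.5%). In the other direction each gave 0 genes, against 2.63%, 2.95% and 1.93% of rows. The cause of the gap was not tested.

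**Figure D2:**
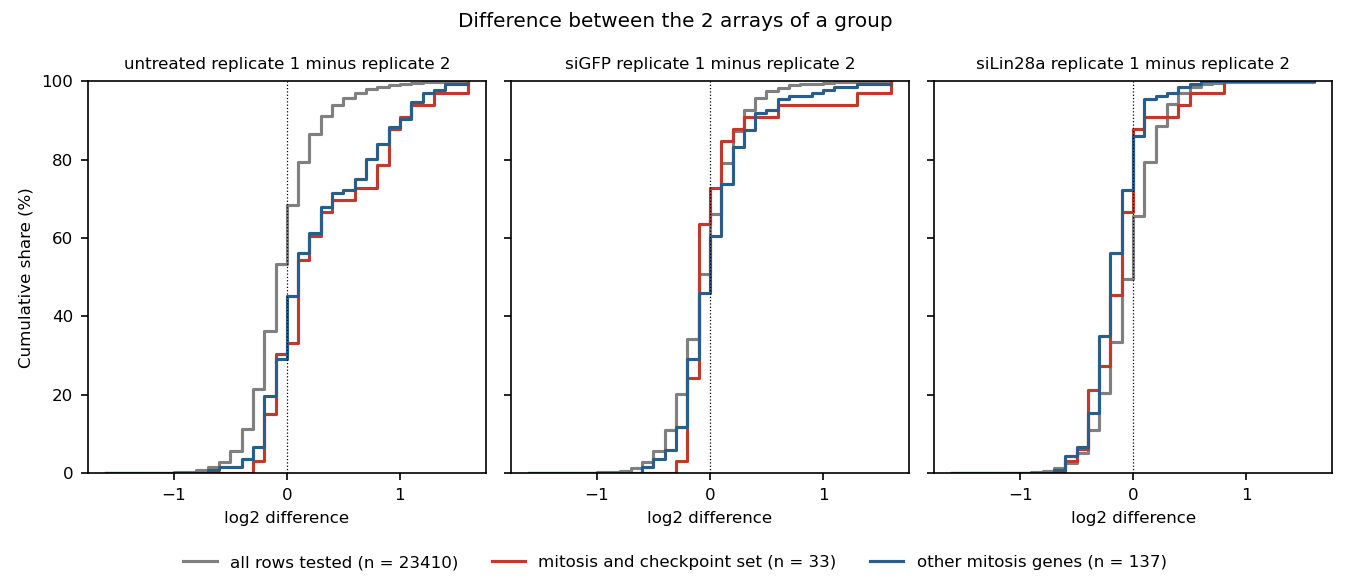
Cumulative share of the differences between the arrays of each group (replicate 1 minus replicate 2, log2 scale, horizontal axis), for the mitosis and checkpoint set, the other mitosis genes and all rows tested. In untreated cells the curves of both mitosis groups run to the right of that for all rows, with 10 of the 33 genes at 0.5 or more, against 3 in siGFP cells and 2 in siLin28a cells.

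**Figure D3:**
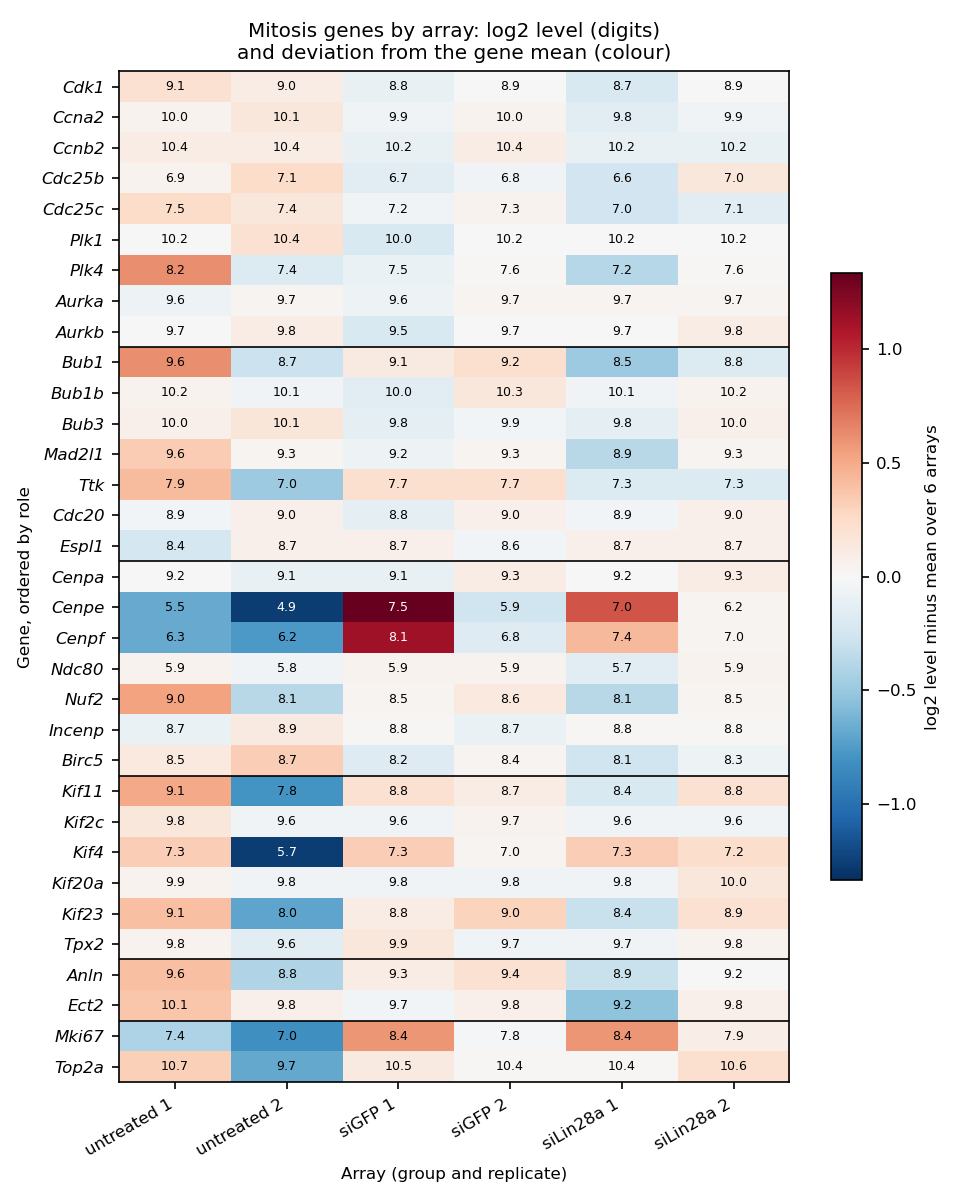
Log2 level of the 33 genes in each of the 6 arrays, ordered by role. Numbers are the deposited levels and colours are the distance of an array from that gene's mean over 6 arrays, so that colours compare arrays within a gene and not genes with each other.

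Levels are given by role, on the deposited log2 scale, as the values of replicates 1 and 2 in untreated, siGFP and siLin28a cells. A level belongs to 1 row of the array and is compared across arrays only.

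Among the genes that drive mitotic entry, Cdk1, the kinase itself, read 9.1 and 9.0, then 8.8 and 8.9, then 8.7 and 8.9. Every siRNA array was below both untreated arrays, and the siRNA groups overlapped. Its partner Ccna2 ran from 9.8 to 10.1 and Ccnb2 from 10.2 to 10.4 over the 6 arrays. Cdc25c, a phosphatase that activates Cdk1, read 7.5 and 7.4, then 7.2 and 7.3, then 7.0 and 7.1, and none of its 3 groups overlapped. Its relative Cdc25b read 6.9 and 7.1, then 6.7 and 6.8, then 6.6 and 7.0, with overlap between the siRNA groups.

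Plk1, a kinase needed for spindle assembly, read 10.2 and 10.4, then 10 and 10.2, then 10.2 and 10.2, with all groups overlapping. Plk4, which starts centriole duplication, read 8.2 and 7.4, then 7.5 and 7.6, then 7.2 and 7.6, and the high value was untreated replicate 1 alone. The spindle pole kinase Aurka was the steadiest of these kinases, at 9.6 and 9.7, then 9.6 and 9.7, then 9.7 and 9.7. Aurkb, the kinase of the chromosomal passenger complex, read 9.7 and 9.8, then 9.5 and 9.7, then 9.7 and 9.8. For both Aurora kinases the groups overlapped.

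Among the checkpoint genes, Bub1, a kinase that recruits other checkpoint proteins to kinetochores, read 9.6 and 8.7, then 9.1 and 9.2, then 8.5 and 8.8. The siLin28a arrays were below the siGFP arrays, and the untreated arrays spanned both siGFP values. Ttk, the kinase that starts checkpoint signalling, read 7.9 and 7.0, then 7.7 and 7.7, then 7.3 and 7.3. Mad2l1, a part of the complex that holds back Cdc20, read 9.6 and 9.3, then 9.2 and 9.3, then 8.9 and 9.3, with overlap throughout. Bub1b ran from 10 to 10.3 and Bub3 from 9.8 to 10.1. The checkpoint's target Cdc20 stayed between 8.8 and 9.0 on all arrays. Espl1, which encodes separase, read 8.4 and 8.7, then 8.7 and 8.6, then 8.7 and 8.7.

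Among the centromere and kinetochore genes, Cenpe, a motor that carries chromosomes to the spindle equator, read 5.5 and 4.9, then 7.5 and 5.9, then 7.0 and 6.2. Cenpf, a large kinetochore protein, read 6.3 and 6.2, then 8.1 and 6.8, then 7.4 and 7.0. For both genes every siRNA array was above both untreated arrays, and siGFP replicate 1 was the highest array. Birc5 (survivin, of the chromosomal passenger complex) read 8.5 and 8.7, then 8.2 and 8.4, then 8.1 and 8.3, so each siRNA array was below both untreated arrays. Nuf2, of the microtubule-binding Ndc80 complex, read 9.0 and 8.1, then 8.5 and 8.6, then 8.1 and 8.5. The centromeric histone Cenpa ran from 9.1 to 9.3, the passenger protein Incenp from 8.7 to 8.9, and Ndc80 from 5.7 to 5.9.

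Among the spindle genes, Kif11 read 9.1 and 7.8, then 8.8 and 8.7, then 8.4 and 8.8. Kif4 read 7.3 and 5.7, then 7.3 and 7.0, then 7.3 and 7.2. Kif23, a motor of the central spindle, read 9.1 and 8.0, then 8.8 and 9.0, then 8.4 and 8.9. In all 3, untreated replicate 2 was the lowest of the 6 arrays. Kif20a, another central spindle motor, read 9.9 and 9.8, then 9.8 and 9.8, then 9.8 and 10. The microtubule-destabilising motor Kif2c ran from 9.6 to 9.8 and the spindle assembly factor Tpx2 from 9.6 to 9.9.

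The cytokinesis genes were Anln, a scaffold of the contractile ring, and Ect2, which activates RhoA at the division plane. Anln read 9.6 and 8.8, then 9.3 and 9.4, then 8.9 and 9.2, and Ect2 read 10.1 and 9.8, then 9.7 and 9.8, then 9.2 and 9.8. The proliferation marker Mki67, whose protein coats mitotic chromosomes, read 7.4 and 7.0, then 8.4 and 7.8, then 8.4 and 7.9, with all siRNA arrays above both untreated arrays. Top2a, the topoisomerase that untangles sister chromatids, read 10.7 and 9.7, then 10.5 and 10.4, then 10.4 and 10.6, inside the untreated range.

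The siGFP cells were compared with untreated cells to see what went with siRNA delivery and the control siRNA. No gene of the set passed the test: limma, fitted over all 6 arrays, called 0 of 23410 rows at an adjusted p under 0.05 (0%), and 825 rows had an unadjusted p under 0.05. Cenpe, Cenpf and Mki67 had log2 fold changes of 1.5, 1.2 and 0.90, the kinases, cyclins and phosphatases had a median of -0.20, and most other genes lay close to 0. Over the 33 genes the median was 0.00, as over all rows.

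Mki67 had a fold of 1.87 in siGFP over untreated cells, a log2 fold change of 0.90 with an SE of 0.27 (n = 2 per group; 95% interval 0.24 to 1.56) and an adjusted p of 0.961 by limma. Cenpe had a fold of 2.83, a log2 fold change of 1.5 with an SE of 0.55 (95% interval 0.17 to 2.83) and the same adjusted p of 0.961 by limma. Cenpf had a fold of 2.30, with a log2 fold change of 1.20 and an SE of 0.40 (95% interval 0.22 to 2.18; limma adjusted p = 0.961). These were the 3 genes of the set (9.09%) with an unadjusted p under 0.05 and a positive sign, against 2.19% of rows. The count of set genes at that level was not stable. In either direction it was 1 with only the 4 arrays compared, against 1026 of 23410 rows. With no shared prior it was 0, against 835 of 23299 rows. Without siGFP replicate 1 the log2 fold changes were 0.70 for Cenpe and 0.55 for Cenpf, and without siGFP replicate 2 they were 2.30 and 1.85. Without untreated replicate 2 they were 1.20 and 1.15, and that of Mki67 was 0.70. Of 137 other mitosis genes, 3 had an unadjusted p under 0.05 in the same direction, a share of 2.19% that equals the background. They were Kif20b, a central spindle motor, at 1.20, and the condensin subunits Smc4 at 1.10 and Smc2 at 0.95. Kif20b read 6.1 and 6.0 in untreated, 7.9 and 6.6 in siGFP and 6.9 and 6.8 in siLin28a cells, and Smc4 read 6.3 and 6.0, then 7.8 and 6.7, then 6.8 and 7.0. Smc2 read 7.9 and 6.8, then 8.6 and 8.0, then 7.8 and 7.8. In all 3, siGFP replicate 1 was again the highest of the 6 arrays. Without it Kif20b and Smc4 were at 0.55 each, and without siGFP replicate 2 Kif20b was at 1.85. Smc2 was at 0.40 without untreated replicate 2 and at 1.5 without replicate 1.

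Of the 9 kinases, cyclins and phosphatases, 8 (88.9%) had a log2 fold change below 0, against 43.1% of rows. Aurka was at 0.00 (95% interval -0.28 to 0.28). Each of the 9 had a 95% interval that included 0. The lowest were Cdc25b at -0.25 (SE 0.17) and Plk4 at -0.25 (SE 0.28), then Cdk1 at -0.20 (SE 0.13; 95% interval -0.51 to 0.11), Plk1 at -0.20 (SE 0.14) and Cdc25c at -0.20. Aurkb was at -0.15 (SE 0.13). Plk4 turned to 0.15 without untreated replicate 1 and was -0.65 without replicate 2. Outside this role, Birc5 was the lowest gene at -0.30 (SE 0.15; 95% interval -0.66 to 0.06; limma adjusted p = 0.961). Over the set, 5 genes (15.2%) were lower in both siGFP arrays than in both untreated arrays, against 8.46% of rows; these were Cdk1, Cdc25b, Cdc25c, Bub3 and Birc5. In the other direction the 3 genes named above did not overlap (9.09%, against 9.22% of rows). The count of 5 became 8 when the values were quantile normalized again (24.2%, against 10.9% of rows), 11 under cyclic loess (33.3%, against 14.5%) and 3 with array medians aligned (9.09%, against 5.23%).

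The checkpoint genes had a median of 0.00, with Bub1 at 0.00 (SE 0.29; 95% interval -0.71 to 0.71), Mad2l1 at -0.20 (SE 0.18), Cdc20 at -0.05 and Espl1 at 0.10 (SE 0.14). Bub1 read -0.45 without untreated replicate 2 and 0.45 without replicate 1. The spindle genes had a median of 0.20, led by Kif4 at 0.65 and Kif23 at 0.35, genes for which untreated replicate 2 was the lowest array. In all, 13 genes were above 0 and 16 below (39.4% and 48.5%, against 44.4% and 43.1% of rows), and 4 were equal. With untreated replicate 2 left out, 6 were above 0 and 23 below (18.2% and 69.7%, against 51.6% and 38.6% of rows). The median of the set was then -0.15, and the median over all rows was 0.05. With untreated replicate 1 left out instead, 17 were above 0 and 15 below (51.5% and 45.5%, against 39.4% and 50.9% of rows). The median of the set was then 0.05, and that over all rows -0.05. Aligning the array medians gave 17 and 12 (51.5% and 36.4%, against 56.9% and 31.1% of rows).

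The comparison of siLin28a with siGFP cells shows how cells given the siRNA against Lin28a differed from cells given the control siRNA. The fold changes of the set were small, from -0.50 to 0.15 with a median of -0.05, and no gene passed the test. The values lowest in siLin28a cells were those of the checkpoint kinases Bub1 and Ttk and of Anln. The main mitotic kinases and the checkpoint's target were near 0. Limma called 0 of 23410 rows at an adjusted p under 0.05 (0%), 949 rows had an unadjusted p under 0.05, and none of those was in the set, where 1.79% of rows were higher and 2.26% lower at that level.

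Bub1 was lowest, with a log2 fold change of -0.50 and an SE of 0.29 (n = 2 per group; 95% interval -1.21 to 0.21; limma adjusted p = 0.953). Ttk was at -0.40 (SE 0.28; 95% interval -1.07 to 0.27) and Anln at -0.30 (SE 0.27; 95% interval -0.95 to 0.35), with the same adjusted p. Leaving out siLin28a replicate 1 took Anln to -0.15. In all, 4 genes (Bub1, Ttk, Anln and Cdc25c, at -0.20) were lower in both siLin28a arrays than in both siGFP arrays. That is 12.1% of the set, against 11.8% of rows, so the share was near the background. No gene of the set was higher in both siLin28a arrays in the values as deposited, against 9.03% of rows. Quantile normalizing again turned this to 6 genes (18.2%, against 15.1% of rows) and cyclic loess to 8 (24.2%, against 17.4%). In the deposited values, 3.87% of rows with a mean of at least 6 were higher in both siLin28a arrays and 15.8% lower. Of the 32 genes of the set that bright, 0% were higher and 12.5% lower.

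The most positive values were 0.15 for Aurkb (SE 0.13; 95% interval -0.16 to 0.46), 0.10 for Plk1 (SE 0.14; 95% interval -0.23 to 0.43) and 0.10 for Kif20a (SE 0.13; 95% interval -0.21 to 0.41). Cdk1 was at -0.05 (SE 0.13; 95% interval -0.36 to 0.26), and this sign turned when the values were quantile normalized again or scaled by cyclic loess. Aurka was at 0.05 (95% interval -0.23 to 0.33), Cdc20 at 0.05 (95% interval -0.26 to 0.36) and Espl1 at 0.05 (95% interval -0.29 to 0.39). Mad2l1 was at -0.15 (SE 0.18; 95% interval -0.59 to 0.29), and at 0.05 without siLin28a replicate 1. Mki67 was at 0.05 (SE 0.27; 95% interval -0.61 to 0.71; limma adjusted p = 0.986), with values of 0.35 and -0.25 when siGFP replicate 1 or 2 was left out, and of -0.20 and 0.30 without siLin28a replicate 1 or 2. The other differences of the set in this comparison were no larger than 0.25 in size. The median 95% interval in this comparison reached 0.35 to either side, which is the precision that 2 arrays per group gave.

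In all, 13 genes (39.4%) were above 0 and 19 (57.6%) below in siLin28a against siGFP cells, against 38.3% and 49.6% of rows, and 1 was equal. Of the 32 genes with a mean of at least 6, 13 (40.6%) were above 0 and 18 (56.25%) below. Among all rows that bright the shares were 24.0% and 63.7%, so the set did not lean down more than like rows. Without siLin28a replicate 1 the counts of the 33 were 18 above and 11 below (54.5% and 33.3%, against 44.2% and 44.7% of rows). Without replicate 2 they were 8 and 22 (24.2% and 66.7%, against 38.2% and 52.9% of rows). The counts also moved with scaling, as did those of all rows. Quantile normalizing again gave 17 and 15 (51.5% and 45.5%, against 49.3% and 47.3% of rows). Cyclic loess gave 17 and 16 (51.5% and 48.5%, against 50.4% and 49.6%). Aligning the array medians gave 4 and 20 (12.1% and 60.6%, against 27.8% and 61.7%). The direction of the set as a whole was therefore not settled by these arrays.

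**Figure D4:**
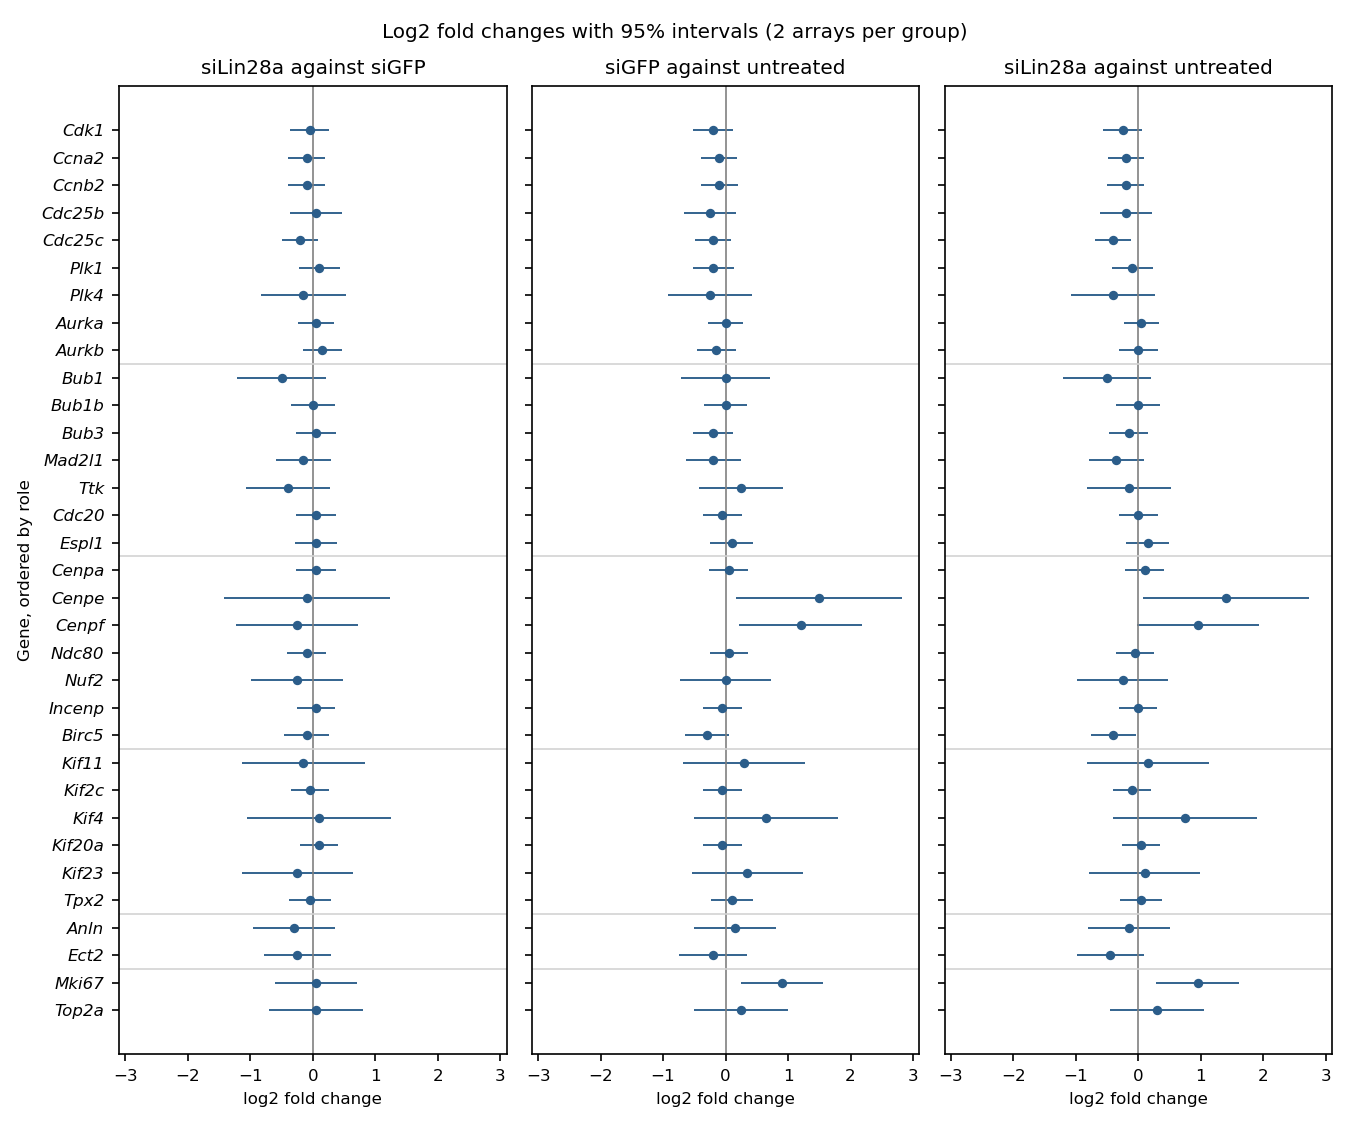
Log2 fold change of each of the 33 genes in the 3 comparisons, with 95% intervals from limma, ordered by role. Cenpe, Cenpf and Mki67 lie furthest from 0 in both comparisons with untreated cells, at 0.90 or more, and the values of siLin28a against siGFP cells lie between -0.50 and 0.15.

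Other genes of mitosis, 141 by name, were set beside these from lists by role, and 137 had a row. In siLin28a against siGFP cells, 102 of the 137 (74.5%) were below 0 and 23 above, against 49.6% of rows below, with a median of -0.15. Without siLin28a replicate 1 the counts were 75 below and 47 above (54.7% below, against 44.7% of rows) with a median of -0.05. Without replicate 2 they were 119 and 14 (86.9% below, against 52.9% of rows). Quantile normalizing again gave 89 below and 44 above (65.0%, against 47.3% of rows), and cyclic loess 90 and 47 (65.7%, against 49.6%). Of them, 35 (25.5%) were lower in both siLin28a arrays, against 11.8% of rows, and 3 (2.19%) were higher in both, against 9.03% of rows. None had an unadjusted p under 0.05. All 8 condensin genes were below 0, with a median of -0.30, and 4 of them were lower in both siLin28a arrays. Of the kinetochore and checkpoint genes outside the set 31 of 37 were below 0. Of the anaphase-promoting complex and cohesin genes 20 of 28 were, and of the spindle and cytokinesis genes 20 of 28. The centriole and centrosome genes were below 0 in 6 of 8 cases. The shares were smaller for mitotic entry, with 9 of 14 (64.3%), and for cell cycle transcription, with 8 of 14 (57.1%).

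The genes with the lowest values were Fbxo5, an inhibitor of the anaphase-promoting complex, at -0.60 (SE 0.39), the kinesin Kif18a at -0.60 (SE 0.31) and the midbody protein Cep55 at -0.55 (SE 0.30), all with a limma adjusted p of 0.953. Fbxo5 read 9.9 and 8.8 in untreated, 9.2 and 9.7 in siGFP and 8.6 and 9.1 in siLin28a cells. Kif18a read 6.8 and 6.1, then 6.8 and 6.2, then 6.1 and 5.7. Cep55 read 8.2 and 7.6, then 7.7 and 8.2, then 7.1 and 7.7. Single arrays carried much of these values: Fbxo5 was at -0.35 without siGFP replicate 2 or siLin28a replicate 1, and Kif18a at -0.30 without siGFP replicate 1. Cep55 was at -0.30 without siGFP replicate 2, and at -0.25 or -0.85 without siLin28a replicate 1 or 2. Gtse1, a microtubule-binding protein named for its expression in G2 and S phase, was the highest at 0.30 (SE 0.13), with 8.5 and 8.7, then 8.6 and 8.5, then 8.8 and 8.9. E2f4 and Cdc26 followed at 0.25 each, and Cdc26 turned to -0.05 without siGFP replicate 1. Of the list, 127 genes had a mean of at least 6, and 94 of these (74.0%) were below 0, where 63.7% of all rows that bright were below 0. Of the same 127, 23.6% were lower in both siLin28a arrays than in both siGFP arrays, against 15.8% of rows that bright. In the other direction the shares were 2.36% and 3.87%.

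The siLin28a cells were also set against untreated cells, which shows the siRNA against Lin28a together with its delivery. This comparison shares the siLin28a arrays with the last one and the untreated arrays with the first. Limma again called 0 of 23410 rows (0%), with 1508 rows at an unadjusted p under 0.05. Mki67 and Cenpe were above untreated cells and Cdc25c and Birc5 below them, each at an unadjusted p under 0.05. The 2 higher genes make 6.06% of the set, against 2.89% of rows, and the 2 lower 6.06%, against 3.55%. Brighter rows leaned further down. With only rows of a mean of at least 6 fitted, 292 of 10542 were higher at that level and 629 lower. Of the 32 genes of the set that bright, 5 reached that level in either direction.

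Mki67 had a fold of 1.93, a log2 fold change of 0.95 (SE 0.27; 95% interval 0.29 to 1.61; limma adjusted p = 0.643). Cenpe had a log2 fold change of 1.40 (SE 0.55; 95% interval 0.07 to 2.73; limma adjusted p = 0.753), and Cenpf of 0.95 (SE 0.40; 95% interval -0.03 to 1.93; limma adjusted p = 0.776). The same genes were the highest of the set in siGFP cells, and both comparisons use the same untreated arrays. Without untreated replicate 2 the values of Mki67, Cenpe and Cenpf were 0.75, 1.10 and 0.90. Cdc25c was at -0.40 (SE 0.12; 95% interval -0.69 to -0.11; limma adjusted p = 0.663) and Birc5 at -0.40 (SE 0.15; 95% interval -0.76 to -0.04; limma adjusted p = 0.705).

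Bub1 was at -0.50 (SE 0.29; limma adjusted p = 0.816), but at -0.05 without untreated replicate 1 and -0.95 without replicate 2. Ect2 was at -0.45 (SE 0.22; limma adjusted p = 0.783), and at -0.15 or -0.75 without siLin28a replicate 1 or 2. Mad2l1 was at -0.35 (SE 0.18) and Cdk1 at -0.25 (SE 0.13), with -0.15 for each when siLin28a replicate 1 was left out. Plk1 was at -0.10, Aurkb and Cdc20 at 0.00, Aurka at 0.05 and Espl1 at 0.15.

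The kinases, cyclins and phosphatases had a median of -0.20, with 7 of 9 below 0, against 46.7% of rows. The spindle genes had a median of 0.075, with 5 of 6 above 0, against 41.9% of rows. For Kif11, Kif23 and Kif4 this sign rests on untreated replicate 2, their lowest array. Their siLin28a values were 8.4 and 8.8, 8.4 and 8.9, and 7.3 and 7.2. Untreated replicate 1 read 9.1, 9.1 and 7.3, so no siLin28a array was above it. Over the set, 12 genes (36.4%) were above 0 and 17 (51.5%) below, against 41.9% and 46.7% of rows. The 5 genes below both untreated arrays in both siLin28a arrays were Cdk1, Ccna2, Ccnb2, Cdc25c and Birc5 (15.2%, against 12.6% of rows). The 3 above them were Cenpe, Cenpf and Mki67 (9.09%, against 11.1% of rows). Of the 32 genes with a mean of at least 6, 15.6% were below both untreated arrays, against 17.8% of rows that bright. Above them the shares were 9.38% and 8.22%. Quantile normalizing again and cyclic loess each put 9 genes above both untreated arrays (27.3%, against 18.8% and 19.4% of rows). Without untreated replicate 2, 9 genes were above 0 and 22 below (27.3% and 66.7%, against 49.9% and 41.1% of rows). Without untreated replicate 1 there were 14 on either side (42.4% each, against 36.6% and 54.5%). Without siLin28a replicate 1 there were 16 above and 14 below (48.5% and 42.4%, against 45.6% and 43.7%). Without siLin28a replicate 2 there were 8 and 23 (24.2% and 69.7%, against 41.7% and 49.9%). Quantile normalizing again gave 18 and 15 (54.5% and 45.5%, against 55.9% and 41.8%).

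Of the 137 other mitosis genes, 83 (60.6%) were below 0 in siLin28a against untreated cells and 43 above, against 46.7% of rows below. Of the 127 with a mean of at least 6, 79 (62.2%) were below 0, against 57.8% of rows that bright. The split of the 137 did not hold in all settings. Quantile normalizing again gave 68 below and 67 above (49.6% below, against 41.8% of rows). Cyclic loess gave 74 and 63 (54.0% below, against 48.2%). Leaving out siLin28a replicate 1 gave 60 and 64 (43.8% below, against 43.7%). An unadjusted p under 0.05 was reached by 6 of the 137 (4.38%, against 3.55% of rows), all below 0; these were Ncapg2, Pbk, Cep192, Cenpl, Cenpp and Rad21. Kinetochore and checkpoint genes outside the set were below 0 in 29 of 37 cases, and the spindle and cytokinesis genes were split, with 14 above and 13 below. The lowest was the condensin II subunit Ncapg2 at -0.65 (SE 0.18; limma adjusted p = 0.643), with 8.3 and 7.9 in untreated, 7.8 and 7.9 in siGFP and 7.3 and 7.6 in siLin28a cells. The mitotic kinase Pbk was at -0.55 (SE 0.19), with 8.5 and 8.4, then 8.0 and 8.5, then 7.8 and 8.0, and Kif18a was at -0.55 (SE 0.31), which became -0.20 or -0.90 without untreated replicate 1 or 2. The highest were Kif20b at 0.80 (SE 0.39), Smc4 at 0.75 (SE 0.35) and Knl1, the kinetochore scaffold for Bub1, at 0.60 (SE 0.52). Knl1 read 6.1 and 6.0, then 7.7 and 6.0, then 6.9 and 6.4, and its value was 0.35 without siLin28a replicate 1. In siGFP against untreated cells, 69 of the 137 (50.4%) were above 0 and 56 (40.9%) below, against 44.4% and 43.1% of rows. The lowest of these lists in that comparison were Ska3 at -0.35 (SE 0.19), Cdc26 at -0.35 (SE 0.22) and Mis18a at -0.30 (SE 0.16). Cdc26 was at -0.05 or -0.65 without siGFP replicate 1 or 2, and Ska3 at -0.20 without untreated replicate 1.

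**Figure D5:**
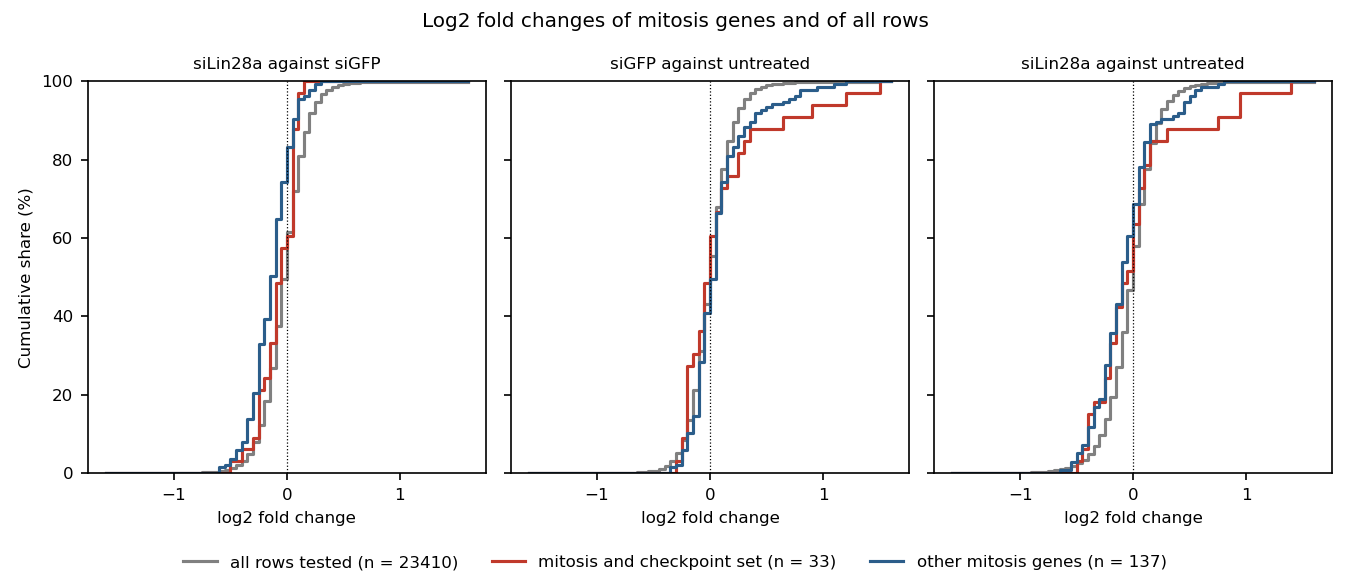
Cumulative share (vertical axis, percent) of log2 fold changes (horizontal axis) of the 33 mitosis and checkpoint genes, the 137 other mitosis genes and all 23410 rows tested, in the 3 comparisons. The curve of the other mitosis genes runs left of that for all rows in siLin28a against siGFP cells, with medians of -0.15 and 0, and the set has a long right tail against untreated cells that holds Cenpe, Cenpf and Mki67.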

How the data were processed

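Gene expression was read from 6 arrays in 3 groups of 2. The submitters' processing notes name Affymetrix Expression Console and RMA, with no versions. The deposited values were taken as log2 levels, as RMA writes them, and come in steps of 0.1. For the array's library files and build, a name is not given in the sources used here. Gene names came from the platform annotation. Rows with several symbols (1613) named no gene. With 2 arrays a group, their number limits the precision.

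The 23410 rows with a gene were fitted in R 4.3.3 by limma 3.58.1 (lmFit and eBayes) over all 3 groups, with 3 residual and 3.19 prior degrees of freedom, no filter on dim rows, and Benjamini-Hochberg adjustment over all rows at 0.05. The fit was tested on simulated data. An exact permutation test of 2 arrays against 2 cannot go below p = 0.333, so none is given. Named with full values were the 3 highest and 3 lowest genes of the set and of the other lists in each comparison, genes of the set with an unadjusted p under 0.05, and 10 main regulators, of which Ccnb1 had no row. Cep192, Cenpl, Cenpp and Rad21 were named after their values were seen. The genes and lists were chosen with earlier results of these data known. Alternatives covered scaling, dim rows, the prior, the replicate number as a block, and leaving out each array.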

Additional observations from a re-analysis of the deposited data

How the results depend on the processing

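All named mitosis genes kept a limma adjusted p above 0.05 under every setting tried, so none gained or lost a call. Values of named genes other than 0 changed sign 3 times under settings that keep all arrays and 9 times with an array left out. These counts take each gene in each setting. Cdk1 in the former and Mki67 in the latter changed sign under more than 1 setting, both in siLin28a against siGFP. Genes at 0 have no direction to keep: Bub1 in siGFP against untreated ran from -0.45 to 0.45 with an array left out. Rows past the threshold, 0 in each comparison, became 1 (siLin28a against siGFP) and 5 (siLin28a against untreated) after cyclic loess, and 1 and 7 with a robust prior. After cyclic loess the median of the set in siLin28a against siGFP was 0.0352. The median of the other mitosis genes in siLin28a against siGFP was -0.0667 when quantile normalized again and -0.0652 under cyclic loess, and in siLin28a against untreated 0 and -0.0145. Quantile normalization reversed Cdk1 in siLin28a against siGFP (0.0333) and Plk1 in siLin28a against untreated (0.0083), and cyclic loess reversed Cdk1 in siLin28a against siGFP (0.0371). The cause was not tested.

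With each array left out in turn, the median of the set ran from -0.15 to 0.05 (siGFP against untreated), -0.10 to 0.05 (siLin28a against siGFP) and -0.10 to 0.00 (siLin28a against untreated), and that of the other mitosis genes from -0.05 to 0.05, -0.20 to -0.05 and -0.15 to 0.00. Genes that reversed had these ranges: Cdc20 -0.15 to 0.05 (siGFP against untreated), Espl1 -0.05 to 0.25 (siGFP against untreated), Plk4 -0.65 to 0.15 (siGFP against untreated), Cdc20 -0.05 to 0.15 (siLin28a against siGFP), Cdc26 -0.05 to 0.55 (siLin28a against siGFP), Cdk1 -0.15 to 0.05 (siLin28a against siGFP), Mad2l1 -0.35 to 0.05 (siLin28a against siGFP), Mki67 -0.25 to 0.35 (siLin28a against siGFP). With the replicate number as a block, 0 rows passed in each comparison, and 1350, 1255 and 1933 rows had an unadjusted p under 0.05 in siLin28a against siGFP, siGFP against untreated and siLin28a against untreated. Deviations of same-numbered arrays correlated across rows at r = 0.15 for untreated with siGFP, -0.04 for untreated with siLin28a and 0.36 for siGFP with siLin28a. Over the set these were 0.16, -0.14 and 0.77. The largest siGFP gaps, replicate 1 minus replicate 2, were 1.6 for Cenpe, 1.3 for Cenpf and 0.6 for Mki67. Their siLin28a gaps were 0.8, 0.4 and 0.5. No other gene of the set had a siGFP gap above 0.3 in size, so the 0.77 rests largely on these genes. The labels do not tie the numbers to shared cultures, so the numbers are not taken as pairs. Whether siGFP and siLin28a arrays of the same number were handled together was not tested.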
